A study of Mus musculus with 2 samples.

Results

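Endothelial cells line the inner wall of every blood vessel. Tumor vessels grow by sprouting, in which a leading tip cell answers vascular endothelial growth factor (VEGF) through its receptors while Notch signals hold its neighbors back as stalk cells, and the vessel tree divides into arteries, capillaries and veins with genes of their own. The endothelium is also where leukocytes enter a tissue, and venous cells carry the adhesion molecules and chemokine receptors that slow them.

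Endothelial cells were taken from single-cell RNA sequencing of EMT6 tumors, a mouse mammary carcinoma line of which 200000 cells were injected under the skin of BALB/c mice with an intact immune system. Mice of the Olaparib + LLY-283 group received olaparib, an inhibitor of the DNA repair enzyme PARP, at 50 mg per kg daily, and LLY-283, an inhibitor of the arginine methyltransferase PRMT5, at 50 mg per kg on 3 days of treatment followed by 4 days without. Mice of the Combo group received both of these and an antibody against the checkpoint receptor PD-1, at 200 µg every 3 days. Each group was 1 library from the pooled tumors of 3 mice, both groups carried both inhibitors, no untreated tumor is analysed here, and a difference between the libraries cannot be told apart from a difference between mice or preparations. The study's methods describe its mice as young females.

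A cell was counted as endothelial if it held at least 200 genes, had under 20% mitochondrial UMIs (unique molecular identifiers, 1 per captured RNA molecule), and carried UMIs of at least 2 of the 8 genes Pecam1, Egfl7, Flt1, Cdh5, Kdr, Emcn, Eng and Cldn5 that together made up at least 0.05% of its UMIs. The leukocyte genes Tyrobp and Ptprc together, and the fibroblast collagen gene Col5a2, each had to stay under 0.05%. By this rule 53 of 21985 kept cells were endothelial, from 23657 cell barcodes in all. They were 41 of 16029 kept cells in the Olaparib + LLY-283 library, 0.256% with an exact 95% Clopper-Pearson interval of 0.184 to 0.347%, and 12 of 5956 in the Combo library, 0.201% (0.104 to 0.352%). The intervals overlapped, and they cover counting error only, not the spread between mice. The whole libraries held 147214934 and 162522700 UMIs, of which the endothelial cells held 228027 and 134074. Of the barcodes, 39 occurred in both libraries and 0 of them were endothelial.

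The depth of the endothelial cells differed between the libraries. Their median was 3505 UMIs in Olaparib + LLY-283, from 771 to 23157, and 10588 in Combo, from 1337 to 35797. In Combo, 7 cells with 9490 or more UMIs held 91.5% of all endothelial UMIs and the deepest alone held 26.7%, against 10.2% for the deepest Olaparib + LLY-283 cell. A value summed over the Combo cells is therefore mostly a value of those 7 cells. With 1 library a group no test across samples is possible, so values below are UMIs and counts per 1000000 UMIs (CPM) of the summed cells, square brackets hold exact 95% Poisson intervals of counting error, and ratios are log2 of Combo over Olaparib + LLY-283 with exact intervals. Each UMI marks the 3′ end of a transcript, so CPM values do not grow with gene length.

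All 8 rule genes were carried by 7 Olaparib + LLY-283 cells and by 7 Combo cells, and those 7 Combo cells were the 7 deep ones. Their marker share ran from 0.801 to 1.07% of UMIs. The 5 other Combo cells held under 5000 UMIs and 0.0784 to 0.598% markers, and the deepest of them held 4416 UMIs. The 16 Olaparib + LLY-283 cells with at least 5000 UMIs ran from 0.0632 to 0.902% with a median of 0.252%, and the 25 shallower ones had a median of 0.594%. In 4 of the 7 deep Combo cells the share was above the highest of the 16, which is a description of the values that chose the cells. Only 2 or 3 rule genes were found in 10 Olaparib + LLY-283 cells and 3 Combo cells. The cells just inside the 0.05% limit held 0.0531% (Olaparib + LLY-283) and 0.0784% (Combo), and those just outside held 0.0429% and 0.0431%.

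**Figure D1:**
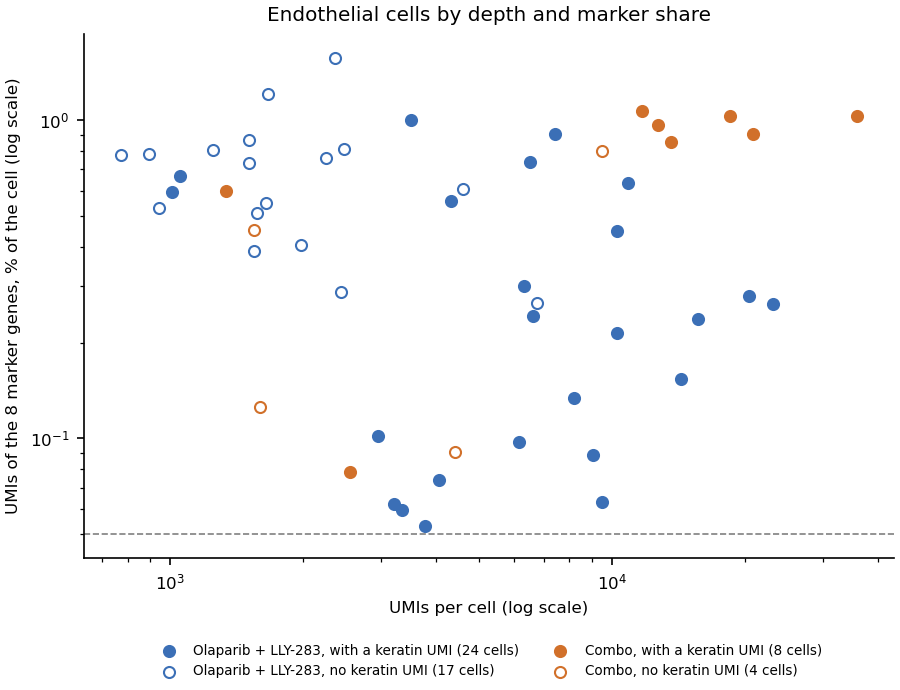
Each point is 1 endothelial cell, with its UMIs on a log x axis and the percent of its UMIs from the 8 rule genes on a log y axis, blue for Olaparib + LLY-283 and orange for Combo. Filled points carry a UMI of Krt8 or Krt18, the dashed line is the 0.05% limit, and the 7 deep Combo cells stand together at the top right between 0.801 and 1.07%.

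Keratin RNA, which marks the EMT6 tumor cells, was present in most of the endothelial cells. A UMI of Krt8 or Krt18 was found in 24 of 41 cells of Olaparib + LLY-283, 58.5% (42.1 to 73.7%, Clopper-Pearson), and in 8 of 12 of Combo, 66.7% (34.9 to 90.1%). Leukocytes, which should lack keratin, had it in 34.4% and 45.8% of cells at median depths of 1456 and 2347 UMIs. With every cell thinned to 1000 UMIs, and 3 shallower Olaparib + LLY-283 cells left out, the endothelial shares were 15 of 38 (39.5%, 24.0 to 56.6%) and 1 of 12 (8.33%, 0.211 to 38.5%). The thinned leukocyte shares were 21.4% and 15.4%, and those of keratin cells (Krt8 and Krt18 at 0.05% or more) 67.2% and 65.4%. The Olaparib + LLY-283 endothelial share thus lay above the leukocyte background and the Combo share lay below it, with an interval that includes it. Keratins reached 0.05% of UMIs in 15 and 2 cells.

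Deep Olaparib + LLY-283 cells held the most keratin RNA and deep Combo cells the least. In Olaparib + LLY-283, 15 of the 16 deep cells carried keratin, at 787 CPM, against 9 of the 25 shallow cells at 301 CPM. In Combo, 6 of the 7 deep cells carried it, with 10 UMIs in all, or 81.5 CPM, and the 5 shallow cells stood at 349.5 CPM. The mesenchymal genes Col1a2 and Acta2 were also lower in the deep Combo cells. Col1a2, a collagen of fibroblasts and of these tumor cells, stood at 857 CPM in the deep Olaparib + LLY-283 cells and 114 CPM in the deep Combo cells, and Acta2, smooth muscle actin, at 1143 and 89.7 CPM. Keratin cells held Col1a2 at 1524 and 1387 CPM and Acta2 at 1414 and 1096 CPM. In leukocytes, which should lack these genes, Krt8 stood at 307 CPM in Olaparib + LLY-283 and 161 CPM in Combo, and Col1a2 at 754 and 354 CPM, so both were lower in Combo in that class too. The part of free RNA or joined cells in the keratin RNA of endothelial cells was not tested.

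The label was checked against 30 endothelial genes that the rule did not use. Of the 27 with at least 20 UMIs, 25 were at least 4-fold higher in endothelial cells than in the other kept cells of both libraries, where 252 of all 3199 genes tested, or 7.88%, were (all 8 rule genes among them). Each of the 41 and 10 of the 12 cells carried at least 1 UMI of the 30 genes, and all 30 had UMIs. They hold transcription factors of the lineage (Sox17, Sox18, Sox7, Erg, Fli1, Ets1), the angiopoietin receptors Tie1 and Tek, the caveolar diaphragm protein Plvap and the nitric oxide synthase Nos3. Because the cells were chosen by their expression, this is a description and no test. Markers of T and NK cells (8 genes) and of red cells (5 genes) were at 0 UMIs in all 53 cells.

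The exceptions were among the cells with 2 rule genes. One Combo cell of 1594 UMIs carried 117 UMIs of S100a9, a neutrophil protein, out of 165 UMIs of myeloid markers, and none of Igfbp3, Gpihbp1, Fabp4 or Plvap. The other Combo cell with none of the 30 genes had 2551 UMIs, 3 of them keratin, 7 of Acta2 and 13 of cell cycle genes. The remaining Combo cell with 2 rule genes carried 4 UMIs of the 30 genes and 30 of Fabp4. The 10 Olaparib + LLY-283 cells with 2 or 3 rule genes held the 30 endothelial genes at 2121 CPM, against 5545 CPM in the 31 others, and the 3 such Combo cells at 467 CPM against 11576 CPM in the other 9. With at least 4 rule genes required, 31 cells (0.193%, 0.131 to 0.274%) and 9 cells (0.151%, 0.0691 to 0.287%) remained, and values for these are given for part of the results.

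The 15 genes outside the rule that most set these cells apart were headed by Igfbp3, Gpihbp1 and Plvap. They were ranked by the smaller, of both libraries, of the log2 ratio of endothelial over other kept cells. Igfbp3 (ENSMUSG00000020427; chromosome 11, 7206086 to 7213923, minus strand, mm10, a secreted protein that binds insulin-like growth factors) had 486 UMIs in 30 of 41 cells and 982 in 8 of 12, or 2131 [1946-2329.5] and 7324 [6873-7797] CPM. In keratin cells it stood at 0.829 and 0.967 CPM, and 0.442% and 0.984% of leukocytes had a UMI. The 7 deep Combo cells held 75, 342, 202, 94, 131, 81 and 55 Igfbp3 UMIs. A single other Combo cell held any, with 2, and 3 of those 5 cells had only 2 rule genes. In Olaparib + LLY-283 the shallow cells were not poorer in Igfbp3, which 17 of 25 carried, at 3005 CPM against 1843 CPM in the deep cells.

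Gpihbp1 (ENSMUSG00000022579; chromosome 15, 75596628 to 75599481, plus strand), which carries lipoprotein lipase to the capillary lumen, had 244 UMIs in 21 cells and 277 in 8 cells. The 7 deep Combo cells held 34, 72, 42, 38, 41, 37 and 12 of these, and every cell of Olaparib + LLY-283 with Gpihbp1 also carried Igfbp3 (21 of 21). Plvap (ENSMUSG00000034845; chromosome 8, 71497765 to 71511752, minus strand) was found in 33 and 7 cells, at 851 [735-979] and 1484 [1285-1705] CPM. Fabp4 (ENSMUSG00000062515; chromosome 3, 10204088 to 10208576, minus strand), a fatty acid carrier of capillary cells, was found in 32 and 8 cells, at 1452 [1299-1617] and 4490.1 [4138-4864] CPM. Of these 3 genes and Igfbp3, each was at least 851 CPM in both libraries and under 1 CPM in the keratin cells.

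The other 11 leading genes were Col4a1 and Col4a2, the type IV collagen chains of the vessel basement membrane, the junction protein Esam, the matrix protein Sparcl1, the imprinted gene Mest, the cadherin Cdh13, the potassium channel subunit Kcne3, the phosphatase Ptprb that acts on the Tie2 receptor, Ctla2a, Tmem252 and the adrenomedullin receptor subunit Ramp2. Col4a1 reached 1548 [1391-1718] and 4677 [4318-5057] CPM. Ctla2a reached 1864 [1691-2049.7] and 5385 [4999-5793] CPM but also 123 and 101 CPM in leukocytes, and reads of its close copy Ctla2b may be shared with it. The lowest were Tmem252 in Olaparib + LLY-283, at 202 [148-269] CPM, and Ptprb in Combo, at 283 [201-389] CPM. In fibroblasts (Col5a2 at 0.05% or more) Col4a1 stood at 139.9 and 309 CPM, so the collagen chains were less restricted to endothelial cells than Gpihbp1, which was at 0 in the fibroblasts of both libraries.

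**Figure D2:**
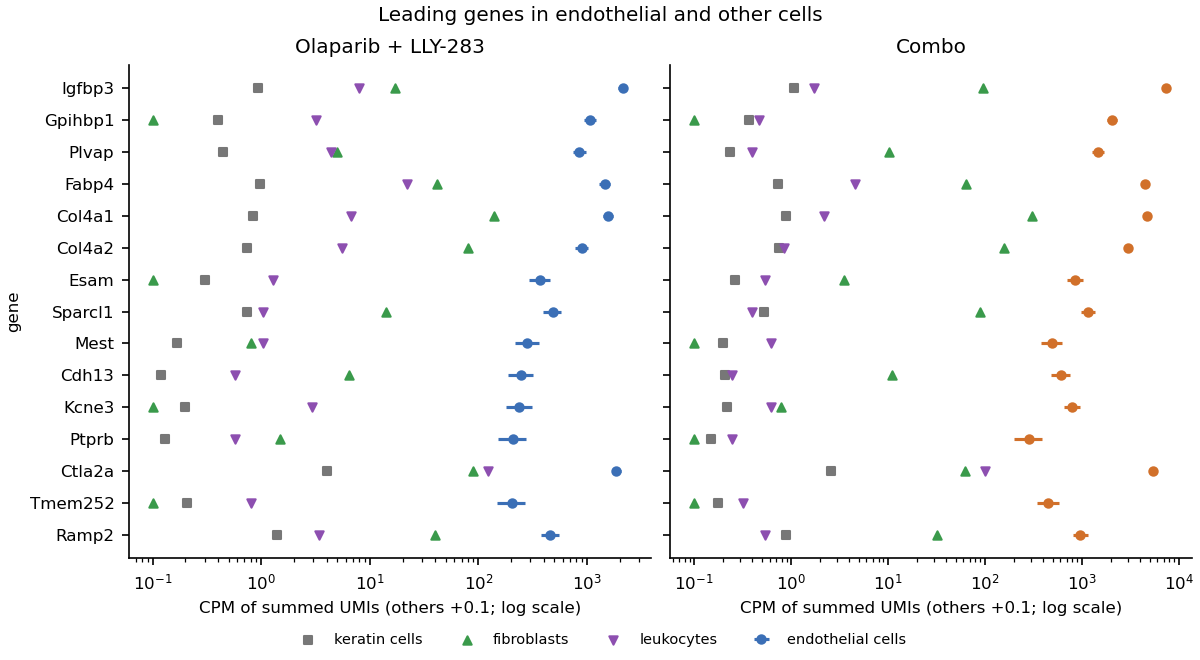
Each row is 1 of the 15 leading genes and the x axis is CPM on a log scale, in Olaparib + LLY-283 (left) and Combo (right). Circles are endothelial cells with exact 95% intervals, and squares, upward and downward triangles are keratin cells, fibroblasts and leukocytes with 0.1 CPM added, all of them left of the endothelial value, as for Igfbp3 at 2131 and 7324 CPM.

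ETS family factors, to which the cells' own Erg, Fli1 and Ets1 belong, bind DNA around the core GGAA, and promoters of endothelial genes are known for such sites. Erg had 7 and 21 UMIs, Fli1 12 and 21, and Ets1 46 and 89. The letters CAGGAAG and CCGGAAG were searched on both strands in the 250 bases before each start site of the 8 rule genes and 30 further endothelial genes, in RefSeq sequences of GRCm38.p6. Of the 38 genes 19 had an entry, with 24 windows. CAGGAAG was found in 10 of 24, or 41.7%, against 10.8% of all 32851 windows, and CCGGAAG in 0 of 24, against 6.91% of all. Both motifs were chosen with earlier results of these data known, they overlap in their last 5 letters, and a match is a description of letters and not a binding site. Emcn and Robo4, a guidance receptor of vessels, show a match, and Kdr, the main VEGF receptor, shows none. The Robo4 match is on the gene's own strand. The Emcn match is on the opposite strand, so the printed strand reads CTTCCTG there. Matched letters are in capitals, and each sequence is written 5′ to 3′ on the gene's strand. The Emcn window is chr3:137340828-137341077, plus strand, the Robo4 window chr9:37401722-37401971, plus strand and the Kdr window chr5:75978456-75978705, minus strand. In Emcn the match starts 174 bases before the start site, in Robo4 50.
Emcn: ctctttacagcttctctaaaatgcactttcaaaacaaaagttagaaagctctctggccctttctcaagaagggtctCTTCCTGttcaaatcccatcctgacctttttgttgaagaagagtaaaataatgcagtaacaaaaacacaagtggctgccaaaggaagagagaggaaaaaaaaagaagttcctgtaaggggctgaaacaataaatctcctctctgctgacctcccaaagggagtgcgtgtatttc
Robo4: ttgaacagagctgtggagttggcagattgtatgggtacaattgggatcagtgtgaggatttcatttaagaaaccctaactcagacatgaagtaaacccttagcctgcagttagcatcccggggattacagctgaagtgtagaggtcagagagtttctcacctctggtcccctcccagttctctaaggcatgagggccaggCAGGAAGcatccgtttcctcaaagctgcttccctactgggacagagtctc
Kdr: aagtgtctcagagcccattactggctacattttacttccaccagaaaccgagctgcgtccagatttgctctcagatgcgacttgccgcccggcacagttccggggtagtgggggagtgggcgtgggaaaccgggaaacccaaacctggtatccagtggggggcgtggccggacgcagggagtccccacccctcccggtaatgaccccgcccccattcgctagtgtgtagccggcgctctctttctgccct
Emcn and Kdr helped choose the cells, so their levels are given only as values. Emcn stood at 517 [428-619.7] and 977 [817-1159] CPM, Robo4 at 48.2 [24.1-86.3] and 172 [109-257], and Kdr at 179.8 [129-244] and 544 [427-685], with keratin cells at 0.127, 0.00976 and 0.0683 CPM in Olaparib + LLY-283.

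VEGF receptors had UMIs in these cells, in part by the rule, and the main ligand stood at or under its level in other cells. Flt1 and Kdr, the receptors VEGFR1 and VEGFR2 and both rule genes, had 149 and 286 UMIs and 41 and 73 UMIs. Flt4, the receptor for VEGF-C, had 13 UMIs in 9 cells and 10 in 5, or 57.0 [30.4-97.5] and 74.6 [35.8-137] CPM against 0.0272 and 0.00621 CPM in the other kept cells. Vegfa, made mostly by tumor and stromal cells, had 22 UMIs in 8 Olaparib + LLY-283 cells and 1 UMI in Combo, or 96.5 [60.5-146] and 7.46 [0.189-41.6] CPM. Keratin cells had Vegfa at 104 and 96.6 CPM, near the Olaparib + LLY-283 endothelial value. The 10 receptors and ligands summed to 1487 [1333-1654] and 3752 [3431-4094] CPM.

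Genes of sprouting vessels were present in both libraries. The 15 tip cell and angiogenic genes summed to 2074 [1892-2269.9] CPM in Olaparib + LLY-283 and 5683 [5287-6102] CPM in Combo, and 12 of the 15 were at least 4-fold higher than in other cells of both libraries, against 7.88% of all genes. Esm1, a secreted proteoglycan of tip cells, had 26 UMIs in 10 cells and 39 in 5, of which 26 were in the deepest Combo cell. Apln, the ligand of the apelin receptor, was found in 8 and 5 cells. Dll4, the Notch ligand of tip cells, had 22 and 35 UMIs in 14 and 7 cells. Angpt2, which loosens vessels through the Tie2 receptor, had 34 and 40 UMIs in 15 and 6 cells. In both libraries the most abundant gene of the tip cell list was none of these. The higher sum of the list in Combo is therefore not a value of the genes named here alone. Of the 13 Notch pathway genes, Notch3, Hey2 and Heyl were at 0 in both libraries, and the targets Hes1 and Nrarp stood at 70.2 [40.1-114] and 70.2 [40.1-114] CPM against 283 [201-389] and 224 [151-319] CPM in Combo.

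The venous genes Selp and Ackr1 divided the Olaparib + LLY-283 cells and were at 0 in the Combo cells, while the direction of the venous list as a whole depended on the weight of cells. Its 10 genes summed to 1302 [1159-1459] and 1477 [1278-1697] CPM, a log2 ratio of 0.18 [-0.09 to 0.45], which turned to -1.57 with cells thinned and -1.01 with cells counted equally. The list was led in both libraries by Lrg1, a secreted glycoprotein, with 122 and 110 UMIs. Of the 6 tested, Tmem252 was at least 2-fold higher in Combo, as 13.8% of all genes tested were, and Nr2f2, the transcription factor of venous identity, with 28 and 4 UMIs (-1.90 [-4.01 to -0.53]), and Vcam1 were lower, as 10.9% of all were. Neither was set apart in endothelial cells: Nr2f2 stood at 123 and 29.8 CPM against 147 and 138 in the other kept cells, and Vcam1 at 149 and 29.8 against 124 and 176. Tumor cell and fibroblast markers were lower in Combo endothelial cells too, and the part of RNA from other cells in these 2 genes was not tested. Selp (ENSMUSG00000026580; chromosome 1, 164115264 to 164150026, plus strand), the adhesion molecule P-selectin, had 17 UMIs in 8 of 41 cells and 0 UMIs in Combo. Ackr1 (ENSMUSG00000037872; chromosome 1, 173331886 to 173333750, minus strand), a chemokine-binding receptor of venules, had 11 UMIs in 6 cells and 0 in Combo. Against the limit that a count of 0 allows in Combo, 3 UMIs or 22.4 CPM, Selp was at least 3.33-fold and Ackr1 at least 2.16-fold lower there, on the summed UMIs and without the counting error of the Olaparib + LLY-283 UMIs. In cells with at least 4 rule genes, Selp had 10 UMIs in 5 cells and Ackr1 7 in 3, and these bounds were 2.18 and 1.53. Counted over cells, 0 of 12 allows a share of up to 25% for cells with a UMI, which is above the 19.5% of Olaparib + LLY-283, so by cells no difference was detectable at this number. Among leukocytes 0.276% and 2.77% had a Selp UMI. Vwf, von Willebrand factor, was found in 11 cells and 1 cell.

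Selp or Ackr1 was found in 9 Olaparib + LLY-283 cells, a subset picked after the values were seen and described without a test. Of the 9, 5 had at least 4 rule genes and 4 had 3. The marker share of 3 of these 4 lay between 0.0632 and 0.0973%, near the 0.05% limit, and these 3 held 7 to 10 UMIs of myeloid and 14 to 24 of fibroblast markers each, whose part in their venous RNA was not tested. The 9 cells held 2917 CPM of the 10 venous genes, among them the 2 that chose them, against 979 CPM in the 32 others, and 919.8 against 2306 CPM of the tip cell genes. All 9 carried Plvap, 2 carried Igfbp3 and 1 carried Gpihbp1. The single cell with both Selp and Gpihbp1 was also the only one of the 9 with all 8 rule genes, at 10246 UMIs, 28 of them Igfbp3 and 7 keratin. Median depths were 1974 and 3635 UMIs. In Olaparib + LLY-283, 28 cells carried Igfbp3 without Selp or Ackr1 and 4 carried none of the 3. In Combo these numbers were 8 and 4. The part of the lower number of Combo cells in the absence of Selp and Ackr1 was not tested.

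Other vessel types left few counts. Of the 12 arterial genes 4 reached 20 UMIs, and 3 of these, Efnb2, Notch4 and Mecom, were at least 2-fold higher in Combo, against 13.8% of all genes, though the sum of the list turned to -0.31 with cells thinned. Gja5, a gap junction protein of arteries, had 3 UMIs in Olaparib + LLY-283 and 0 in Combo, and Bmx was at 0 in both, while Efnb2, ephrin-B2, had 19 and 27 UMIs. Of the 8 lymphatic genes, the master regulator Prox1 and Ccl21a, Mmrn1 and Reln were at 0 in all 53 cells, and Lyve1 had 1 UMI in each library. The whole list had 33 UMIs in 15 cells and 11 in 5, led by Pdpn in Olaparib + LLY-283 and by Flt4 in Combo. Among 11 mural cell genes, which mark the pericytes and smooth muscle around vessels, Rgs5, Cspg4, Notch3, Myh11 and Higd1b were at 0. Others of the same list, which summed to 291 and 110 UMIs, were not. Acta2, its most abundant gene in Olaparib + LLY-283 and also present in keratin cells, had 225 UMIs there and 21 in Combo. The channel subunit Kcnj8 had 43 UMIs in 16 cells and 55 in 8, and Abcc9 12 in 8 and 31 in 7. Of the 3 mural genes tested, 2 were at least 2-fold higher in Combo and 1, Acta2, lower, against 13.8% and 10.9% of all genes. All 7 deep Combo cells held Kcnj8 while the defining pericyte markers Rgs5, Cspg4 and Notch3 were at 0 in them.

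**Figure D3:**
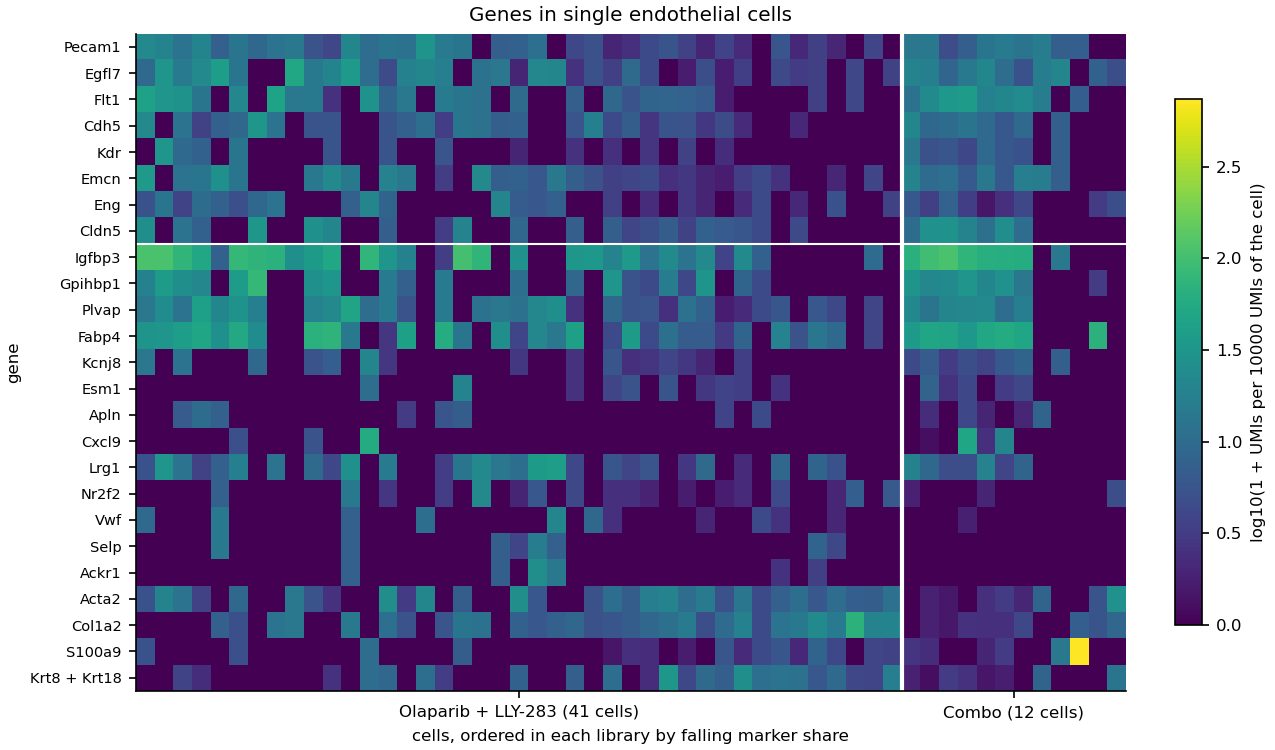
Each column is 1 endothelial cell, 41 of Olaparib + LLY-283 left of the white line and 12 of Combo right of it, ordered by falling marker share, and each row is 1 gene on the scale log10(1 + UMIs per 10000 UMIs of the cell). The 8 rule genes are above the horizontal line. Igfbp3, Gpihbp1, Plvap and Fabp4 fill the first 7 Combo columns, Selp and Ackr1 appear in 9 columns on the left and none on the right, and the bright S100a9 field is the Combo cell with 117 UMIs.

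Between the libraries, the endothelial genes were higher in the summed Combo cells and the tumor cell and fibroblast markers were lower. Of 3199 genes with at least 20 UMIs, 440 (13.8%) were at least 2-fold higher in Combo and 348 (10.9%) at least 2-fold lower, with a median log2 ratio of 0.04. Counting error alone can carry a gene near 20 UMIs past this fold. Of the 27 endothelial genes outside the rule 19 were at least 2-fold higher and 0 lower, with a median log2 ratio of 1.26, and their sum was 4999 [4713-5298] against 10867 [10316-11439.8] CPM, a log2 ratio of 1.12 [1.01 to 1.23]. The same held for the tip cell genes (12 of 15 at least 2-fold higher, median 1.34), basement membrane genes (9 of 12, median 1.22), capillary genes (5 of 8, median 1.36) and Notch genes (4 of 5, median 1.59), while of the 8 junction genes outside the rule 3 were, with a median of 0.74. In none of these 5 lists was a gene at least 2-fold lower. The rule used the marker share of each cell, and endothelial genes rise and fall with it, so these counts are read as a description of the cells chosen.

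Much of that gap depended on how the cells of both libraries were weighted. With each cell counted equally, the log2 ratio of the 30 endothelial genes was 0.20 in place of 1.12, that of the tip cell genes 0.76 in place of 1.45, and that of the capillary genes 0.45 in place of 1.25. Among deep cells alone, the 30 genes stood at 4246 CPM in the 16 Olaparib + LLY-283 cells and 11710 CPM in the 7 Combo cells. Among cells under 5000 UMIs the order was reversed, at 7284 CPM in 25 Olaparib + LLY-283 cells and 1835 CPM in 5 Combo cells. Of these 5 Combo cells, 3 had only 2 rule genes and together held the 30 genes at 467 CPM. The size of the reversal therefore rests largely on cells whose label is in doubt. Without cells of 0.05% keratin or more, their log2 ratio was 0.72. The tip cell genes kept most of their ratio when every cell was thinned to 1000 UMIs, at 1.32. The Notch genes then stood at 0.41 and the basement membrane genes at 0.30. The VEGF and junction lists, which here include rule genes that chose the cells, stood at 0.65 and 0.41 and are given only as values.

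Some single genes went past that shift. Icam2, an adhesion molecule of endothelial cells, stood at 162 [114-224] and 597 [473-743] CPM, a log2 ratio of 1.87 [1.30 to 2.48]. Cd300lg, a receptor of capillary and venular cells, had 3 UMIs in 2 cells and 25 in 6, a ratio of 3.63 [2.11 to 6.20], and Cd36, a fatty acid transporter, a ratio of 2.74 [1.59 to 4.25]. Hspg2, the basement membrane proteoglycan perlecan, had a ratio of 2.00 [1.45 to 2.60], against 0.85 [0.74 to 0.96] for Sparc. At the other end Cyyr1 (0.03 [-1.29 to 1.21]) and Sox7 (0.14 [-1.87 to 1.88]) had intervals that include 0. The sums of these lists therefore hid a spread from near 0 to over 3 on the log2 scale. Eng, at 0.22 [-0.41 to 0.83], is a rule gene that helped choose the cells and is given only as a value.

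The growth factor lists did not move as 1 group. Without the rule genes Flt1 and Kdr, which held 190 and 359 of the list's UMIs against 149 and 144 for the rest, 7 VEGF genes were tested, 2 of them at least 2-fold higher in Combo (Pgf and Vegfc) and 2 lower, Vegfa (-3.14 [-9.06 to -1.06]) and Vegfb (-3.08). Over all genes the shares were 13.8% and 10.9%. With at least 4 rule genes, 7 of the 10 genes of the whole list, Flt1 and Kdr included, were tested, against 9 in all cells. Of these 7, 4 were higher and 0 lower. In all cells Vegfa and Vegfb had 22 and 21 UMIs in Olaparib + LLY-283 and 1 each in Combo, near the minimum of 20. The 0 therefore does not show that they lost their ratio. The co-receptors Nrp1 and Nrp2 stood at 0.64 [0.01 to 1.27] and 0.19 [-0.77 to 1.09] on the log2 scale. Of 5 angiopoietin and Tie genes tested Tie1 (1.24 [0.37 to 2.16]) and Angptl4 (2.74 [1.59 to 4.25]) were past 2-fold, and Angpt2 lay just under it at 1.00 [0.30 to 1.70]. Tek, the Tie2 receptor, had 11 and 9 UMIs, a ratio of 0.49 [-0.97 to 1.89].

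Of 11 TGF-beta and BMP genes tested, the rule gene Eng among them, 1 was at least 2-fold higher and 1 lower, near the shares of 13.8% and 10.9% of all genes. Higher was Tgfb1 (1.33 [0.67 to 2.02]), and lower the inhibitor Smad7 (-1.27 [-3.43 to 0.20]), whose interval includes 0. With at least 4 rule genes, 9 in place of 11 were tested, 1 of them higher and 0 lower. As fewer genes were tested, the 0 does not show that Smad7 lost its ratio. The targets Id1 and Id3 stood at 0.82 [-0.01 to 1.66] and 0.03 [-0.71 to 0.72]. Both, which BMP signals drive through the receptor Acvrl1 and the co-receptor Eng, lay under the median of the endothelial genes. Junction genes ran from Gja1, connexin 43, at 0.02 [-0.54 to 0.56], through Ctnnb1, beta-catenin, at 0.71 [0.29 to 1.12], to Tjp1, which anchors tight junctions, at 1.54 [0.86 to 2.26]. Among basement membrane genes Col18a1, Nid1 and Sparc were under 2-fold, at 0.65 [0.15 to 1.14], 0.62 [0.07 to 1.16] and 0.85 [0.74 to 0.96], while the laminin chains Lama4, Lamb1 and Lamc1 were past it, at 1.37 [0.75 to 2.03], 1.06 [0.56 to 1.58] and 1.18 [0.55 to 1.82]. Capillary genes split likewise, with Aqp1, a water channel, and Cav1, caveolin, at 0.33 [-0.13 to 0.77] and 0.43 [-0.09 to 0.93], and Rgcc at 1.49 [0.74 to 2.30].

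Of 14 hypoxia and glycolysis genes tested 1, Ndrg1, was at least 2-fold higher in Combo (1.36 [0.89 to 1.85]) and 2, Pgam1 (-1.01 [-1.38 to -0.66]) and Vegfa, were lower, near the shares of 13.8% and 10.9% of all genes. Gapdh had 556 and 247 UMIs (-0.40 [-0.63 to -0.19]), and Pkm 358 and 286 (0.44 [0.21 to 0.67]). Of 4 p53 targets tested none was past 2-fold, with Cdkn1a, the p21 inhibitor of the cell cycle, at 0.55 [-0.14 to 1.22] and Bax at -0.21 [-0.80 to 0.35].

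Of the 10 genes with the largest ratio toward Combo, 5 had 40 to 131 UMIs in a single Combo cell. These were Ptn, a heparin-binding growth factor, with 2 and 70 UMIs, 61 of the latter in 1 cell, Pgf, a VEGFR1 ligand, with 8 and 50, 40 in 1 cell, Timp3, a metalloproteinase inhibitor, with 39 and 166, 131 in 1 cell, Cxcl9 with 8 and 92, 62 in 1 cell, and S100a9 with 31 and 131, 117 in 1 cell. S100a9 lost its ratio, 2.83 [2.27 to 3.46], when at least 4 rule genes were required (0.18). In the other 5 the cell with the most held 13 to 25 UMIs, which for Daam1 were 24 of 45. Rbp7, a retinol-binding protein of capillaries, had 3 UMIs in 3 cells and 56 in 4, a ratio of 4.78 [3.37 to 7.31]. Apold1, an endothelial early response gene, had 13 in 7 and 48 in 8 (2.61 [1.74 to 3.66]), and Sash1 11 in 8 and 41 in 8 (2.62 [1.68 to 3.77]). Daam1 and AA467197 had ratios of 2.75 [1.83 to 3.90] and 2.71 [1.93 to 3.63].

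The 10 genes with the largest ratio the other way were Ogn, Mgp, Il1rl1, Igfbp6, Cp, Ptgs2, Sdc4, Msmo1, Timp2 and Fbln2. Ogn, a small proteoglycan of the matrix, had 114 UMIs in 19 Olaparib + LLY-283 cells and 2 in Combo, a log2 ratio of -4.75 [-8.13 to -3.18]. Keratin cells had Ogn at 371 and 352 CPM, against 499.9 and 14.9 CPM in endothelial cells. All 10 genes were above 150 CPM in keratin cells of Olaparib + LLY-283, and at most 44.8 CPM in Combo endothelial cells. Keratins moved the same way, with the tumor cell markers at 667 [565-781] and 112 [62.6-185] CPM, and so did the fibroblast markers, at 1474 [1320.2-1639.8] and 365 [270.4-483] CPM. The log2 ratio of the tumor markers, -2.53 [-3.45 to -1.81], was -0.89 with cells thinned and -1.16 with cells counted equally, and that of the fibroblast markers -0.54 and -1.19. Of the 7 tumor markers Krt8 was the most abundant, and Krt19, Krt7, Cldn4 and Cldn7 were at 0. Of the 9 fibroblast markers Col1a2 was the most abundant and Thy1 was at 0. The list includes Col5a2, which the rule kept under 0.05% of UMIs in every cell. The part of tumor cell RNA in these 10 genes was not tested.

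**Figure D4:**
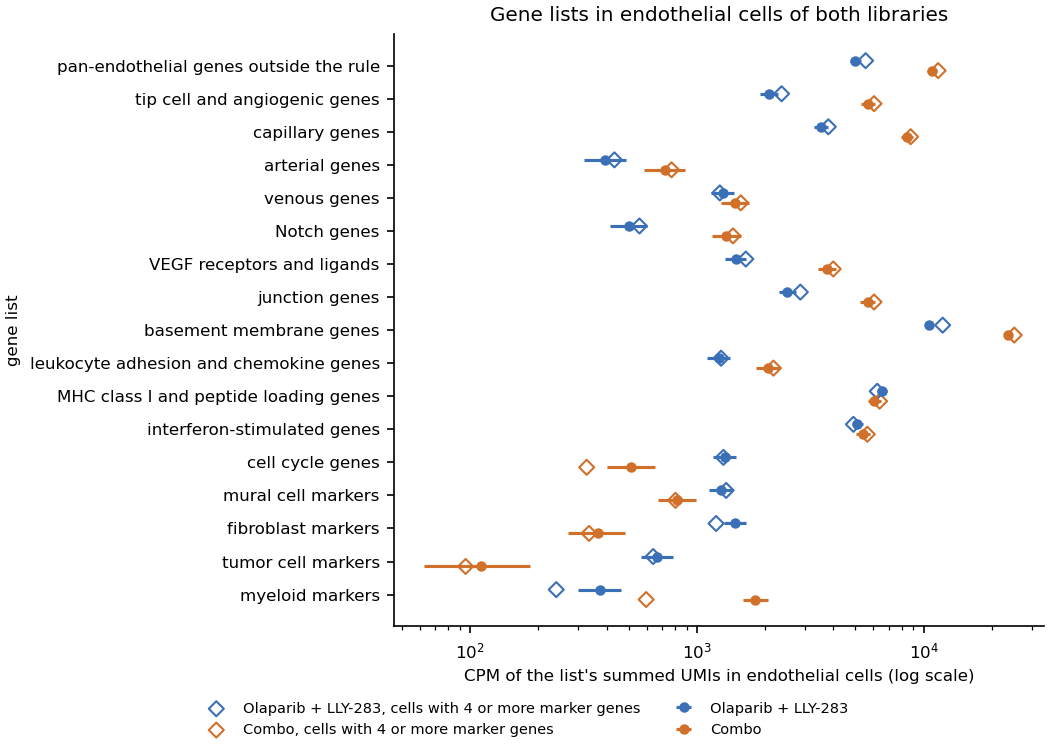
Each row is a gene list and the x axis is the CPM of its summed UMIs in endothelial cells on a log scale, blue for Olaparib + LLY-283 and orange for Combo. Circles with bars are all 41 and 12 cells with exact 95% intervals, and open diamonds the 31 and 9 cells with 4 or more rule genes. The first 3 lists and the Notch, VEGF, junction and basement membrane lists lie to the right in Combo, the tumor, fibroblast, mural and cell cycle lists to the left, and the venous, MHC class I and interferon lists at nearly the same place. The VEGF and junction lists include rule genes, and the fibroblast and myeloid lists include genes that the rule kept low.

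Genes through which endothelial cells meet leukocytes did not move as 1 group. Of 16 adhesion and chemokine genes 6 reached 20 UMIs, and 3 were at least 2-fold higher in Combo and 3 lower, against 13.8% and 10.9% of all genes. Higher were Cxcl9, Icam2 and the sialomucin Cd34. Cxcl9, a chemokine that attracts activated T cells (ENSMUSG00000029417, chromosome 5, 92321347 to 92328079, minus strand), stood at 35.1 [15.1-69.1] and 686 [553-842] CPM. Cxcl9 was found in 3 of 41 and 4 of 12 cells, with 1, 62, 3 and 26 UMIs in the Combo cells, while 1.88% and 2.24% of leukocytes had a UMI. Lower were Vcam1 (-2.17 [-4.28 to -0.83]) and Icam1 (-2.40 [-4.96 to -0.92]), ligands of leukocyte integrins, and the monocyte chemokine Ccl2 (-2.60 [-4.69 to -1.30]). Other kept cells held Vcam1 as given above and Ccl2 at 56.3 and 107 CPM, against 202 and 29.8 in endothelial cells, while Icam1 stood at 136 and 22.4 CPM in endothelial cells and 2.63 and 8.31 in the others. A single Olaparib + LLY-283 cell held 23 of the 46 Ccl2 UMIs. The sum of the list, 0.71 [0.47 to 0.96] on the log2 scale, turned to -0.35 with cells thinned and -0.19 with cells counted equally.

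MHC class I genes, which present peptides to CD8 T cells, differed little in sum. The 13 genes stood at 6556 [6228-6897] and 6064 [5654-6495] CPM, a log2 ratio of -0.11 [-0.24 to 0.01], and its sign changed among the alternatives, from -0.30 to 0.18. A single Combo cell of 12714 UMIs held 269 of the 813 class I UMIs, or 33.1%, and the ratio without that cell was not computed. B2m had 1916 [1741-2105] and 1409.7 [1216-1626] CPM, H2-K1 1482 [1328-1649] and 1626 [1417-1857], and H2-D1 1995 [1816-2187] and 2044 [1809-2301], where reads of near-identical class I copies may be shared. Keratin cells had B2m at 1955 and 1549.9 CPM. Of the 9 tested only Psmb9, an immunoproteasome subunit, was past 2-fold, at -1.14 [-2.44 to -0.11], where 13.8% of all genes were higher and 10.9% lower. The 7 class II genes had 8 and 41 UMIs, 70.7% of the latter in 1 cell, against 2513 and 2565 CPM in leukocytes.

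The 35 interferon-stimulated genes stood at 5105 [4816-5407] and 5407 [5021-5816] CPM, a log2 ratio of 0.08 [-0.05 to 0.22], which turned to -0.74 with cells thinned and -0.44 with cells counted equally. The same Combo cell of 12714 UMIs held 212 of the 725 Combo UMIs of this list, or 29.2%. It also held the 62 UMIs of Cxcl9 and 29 of the 41 of class II genes. Of the 13 tested 1 was at least 2-fold higher and 3 lower, against 13.8% and 10.9% of all genes. Gbp4, an interferon-induced GTPase, was higher (1.40 [0.39 to 2.50]). Ifi27 (-1.06 [-2.07 to -0.22]), Gbp7 (-1.09 [-2.76 to 0.16]) and Parp14 (-1.11 [-3.27 to 0.40]) were lower, the latter pair with intervals that include 0. Rsad2 and Ifit1, both under 20 UMIs, had 19 and 12 UMIs in Olaparib + LLY-283, 14 of the former in 1 cell, and 0 in Combo. That cell had 2 rule genes, the lowest marker share of all endothelial cells (0.0531%) and 6 keratin UMIs. It held 86 UMIs of the interferon list. Ifitm3 made the largest part of the sum, at 1715 [1549-1893] and 2223 [1977-2489.9] CPM. Of 9 checkpoint ligands 3 were tested and all 3 were at least 2-fold higher in Combo, against 13.8% of all genes. Cd274, which encodes PD-L1, had 2 UMIs and 1 UMI in all, with 11.5% and 23.5% of leukocytes carrying one, while Lgals9, Nectin2 and Cd276 had ratios of 1.04 [0.34 to 1.75], 1.88 [0.98 to 2.89] and 1.72 [0.46 to 3.20].

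The 20 cell cycle genes summed to 1324 [1179-1483] and 515 [400.4-651] CPM, a log2 ratio of -1.36 [-1.76 to -0.98]. Of 7 tested, Mki67 (-2.31 [-4.87 to -0.82]) and Cdk1 (-1.11 [-2.62 to 0.05]) were at least 2-fold lower in Combo and 0 higher, against 10.9% and 13.8% of all genes. With at least 4 rule genes, 4 of 6 tested were lower. The direction of the sum was not stable: its log2 ratio was 0.88 with cells thinned and 0.26 with cells counted equally, and -1.99 with at least 4 rule genes. In Combo the 5 shallow cells held 2884 CPM of these genes and the 7 deep cells 294. Most of the shallow cells' UMIs lay in a cell of 4416 UMIs and a cell of 2551 UMIs, with 14 and 13. Each of those cells had only 2 rule genes. Keratin cells stood at 2144 and 2257 CPM. Immediate early genes, switched on by stress and by tissue dissociation, stood at 5539 [5238-5853] and 4236 [3895-4599.6] CPM. Of 14 tested, Egr1 (-1.77 [-2.84 to -0.93]), Jun (-1.25 [-1.83 to -0.73]), Fosb and Klf4 were at least 2-fold lower in Combo, against 10.9% of all genes. The flow-responsive factor Klf2 was higher (1.17 [0.69 to 1.67]), against 13.8% of all genes, with 62 of its 85 Combo UMIs in 1 cell. With at least 4 rule genes, 6 of 14 were lower. Of 10 clotting and vessel tone genes tested 3 were at least 2-fold higher, Nos3, the clotting inhibitor Tfpi (1.36 [0.44 to 2.35]) and the endothelin receptor Ednrb (1.79 [1.25 to 2.38]), and 4 lower, among them Edn1, endothelin itself (-2.17 [-4.28 to -0.83]), and the cyclooxygenases Ptgs2 and Ptgs1 (-2.53 [-5.94 to -0.81]), against 13.8% and 10.9% of all genes.

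The targets of the drugs left few UMIs. Prmt5, the enzyme that LLY-283 blocks, had 13 UMIs in 8 cells and 0 in Combo. On summed UMIs it was at least 2.55-fold lower against the same limit of 3 UMIs, again without the counting error of the 13. Prmt5 was found in as many Olaparib + LLY-283 cells as Selp, so by cells no difference was detectable with 12 Combo cells. Its partner Wdr77 had 13 and 3 UMIs. Parp1 and Parp2, targets of olaparib, had 5 and 9 UMIs, and 1 and 4 in Combo. Pdcd1, which encodes PD-1, was at 0 in all 53 cells. Of the remaining lists, log2 ratios of the sums were 0.04 [-0.29 to 0.36] for p53 targets, -0.19 [-0.29 to -0.09] for hypoxia and glycolysis genes, 0.48 [0.24 to 0.73] for TGF-beta and BMP genes, 0.91 [0.56 to 1.26] for angiopoietin and Tie genes, 0.87 [0.45 to 1.30] for arterial, 0.18 [-0.09 to 0.45] for venous and -0.78 [-1.95 to 0.20] for lymphatic genes. They were -0.00388 [-0.25 to 0.24] for clotting and vessel tone genes, -0.63 [-0.97 to -0.32] for mural and 2.28 [1.92 to 2.66] for myeloid markers. Of the 3 mural genes tested, Acta2 was at least 2-fold lower in Combo and the other 2 higher. Several of these sums depended on depth and the weight of cells: with cells thinned, arterial genes turned to -0.31, hypoxia genes to 0.20 and mural markers to 0.33, and angiopoietin and Tie genes stood at 0.08. With cells counted equally, angiopoietin and Tie genes turned to -0.29, TGF-beta and BMP genes to -0.0736 and lymphatic genes to 0.34, and arterial genes stood at 0.17. The p53 targets turned to -0.33 without the deepest cell of each library. Platelet markers had 2 and 9 UMIs and skeletal muscle markers 5 and 3. Of the 12 myeloid markers S100a8 and S100a9 were the most abundant in Olaparib + LLY-283 and Combo, and Csf1r was at 0. With at least 4 rule genes the myeloid sums were 239.9 and 598 CPM. The myeloid list includes Tyrobp and Ptprc, which the rule kept together under 0.05% of UMIs in every cell.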

How the data were processed

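Per the labels and the study's methods, tumors of 3 mice were pooled per library, prepared with a 10x Genomics 3′ kit and counted by the authors with Cell Ranger against mm10; the deposited counts are whole UMIs per gene and barcode, not normalized. The matrix headers name version 6.1.2, and the submitters' processing notes name bcl2fastq 5.0.1 and Seurat 4.1.0. The study's methods name other, later versions of Cell Ranger and Seurat, and which made the files was not settled. The protocol included red cell lysis and dead cell removal.

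From these counts, cells under 200 genes or at 20% or more mitochondrial UMIs were dropped, and the rest divided by the limits given above. The members, gene lists and motifs were chosen with earlier results of these data known. UMIs were summed over the cells of a class; ratios between libraries used 0.5 UMI added to each count, and ratios to other cells 1 CPM added. Genes needed at least 20 UMIs over both libraries. Named were the 8 rule genes, the 15 leading genes (found in 10% or more of the endothelial cells of both libraries), the 10 genes with the largest ratio each way with at least 50 UMIs, and part of the members of the 31 lists that lead them, passed 2-fold or were at 0; single genes beyond these were chosen after their values were seen, and 1 gene of a list is not reported here. Gene positions are from GENCODE M21, which held all 55450 identifiers. Scrublet in scanpy 1.11.5 marked 0 cells in both libraries by its automatic threshold, so it did not work. In its place the highest scores at the rate of 0.8% per 1000 cells were taken, 2055 and 284 cells, of which 0 were endothelial, and no cell was removed. No test across samples, p-value or standard error was possible with 1 library a group. Alternatives changed the limits, the depth, the weight of cells, the scaling and the filter on low counts. The scripts ran on Python 3.11.15 with scipy 1.17.1, pandas 2.3.3, matplotlib 3.10.9 and numpy 2.4.6, and the ratio script was tested on simulated data.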

Additional observations from a re-analysis of the deposited data

Results flagged for a closer look

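In the Olaparib + LLY-283 library 4 cells met the marker conditions but were left out by the leukocyte limit, 2 of them with at least 7 of the 8 rule genes; they belong to no comparison of the report. In Combo there were 3, all with 2 rule genes.

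The 13 MHC class I and peptide loading genes lay on opposite sides of the other kept cells in the libraries, with log2 ratios of endothelial over other cells of 0.0022 in Olaparib + LLY-283 and -0.16 in Combo, and the difference was not tested. The 9 drug target genes did so too, at 0.21 and -0.81, with 87 and 27 UMIs in all, and this was not tested either.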

How the results depend on the processing

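Each result was recomputed under 7 to 14 alternatives, 389 values in all, of which 304 stayed within the spread or count range of the main value. Alternatives with at least 4 rule genes, without the deepest cell of each library, or with rule genes left out of a list, were chosen after seeing the data. Unless a reason is given, the cause was not tested.

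With keratins limited to under 0.05% of UMIs, 26 of the 41 cells remained, 257 genes were at least 2-fold higher in Combo and 211 lower, and log2 ratios were 1.16 for tip cell, 0.18 for MHC class I and -1.92 for cell cycle genes. Thinning to 1000 UMIs left 25 and 36 genes past 2-fold and 37 genes at least 4-fold over other cells, since few genes then reached 20 UMIs, moved the keratin shares to 39.5 and 8.33%, and gave ratios of -0.35 for adhesion, -0.28 for MHC class I, -0.74 for interferon and 0.88 for cell cycle genes. With cells counted equally these were -0.19, -0.30, -0.44 and 0.26, and 0.76 for tip cell genes. A minimum of 50 UMIs left 158 higher, 111 lower and 120 over other cells, and 1 UMI gave 2578, 2176 and 614, as the number of genes tested changed. With at least 3 rule genes, a 0.1% marker share or at least 4 rule genes, MHC class I was 0.0140, 0.0254 and 0.0349 and cell cycle -2.01, -1.98 and -1.99; the 0.1% share put tip cell genes at 1.27. Without the deepest cells, cell cycle was -0.90 and p53 targets turned to -0.33.

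Other lists turned sign to a value outside the interval of their main ratio. When thinned these were arterial (-0.31), venous (-1.57), hypoxia and glycolysis (0.20) and mural (0.33). With cells counted equally they were venous (-1.01), lymphatic (0.34), angiopoietin and Tie (-0.29), TGF-beta and BMP (-0.0736), hypoxia and glycolysis (0.10) and immediate early (0.0263). Signs that turned within that interval are not listed, as for venous genes with keratins limited (-0.0840) and for clotting genes and p53 targets under several alternatives. No paired analysis was possible because each group is 1 library, and for the same reason no replicate could be left out. Depth limits what 12 Combo cells can show: a gene at 0 UMIs there may stand at up to 22.4 CPM.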
